A study of Mus musculus with 2 samples.

Results

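The 10 genes described here encode tubulin, microtubule-binding and growth cone proteins of young neurons: *Tubb3*, *Stmn1*, *Stmn2*, *Stmn3*, *Stmn4*, *Dcx*, *Map1b*, *Map2*, *Mapt* and *Gap43*. They were taken by symbol from the 33207 genes counted in each library, every one matched a single row, and every one had UMIs in both libraries. The question was the order in which they appear between *Sox10*-positive progenitors and *Isl1*-positive sensory neurons, and how much of their RNA is counted in glia.

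The study traced the cells that derive from boundary caps, clusters of neural crest cells at the points where spinal nerve roots meet the neural tube. Embryos carried heterozygous *Egr2-Cre* (*Krox20-Cre*) and a *R26-Tomato* reporter, given as genotype Egr2,R26mT, and were collected at E11.5 or E12.5, with no other treatment or genotype in either group. Tomato-positive cells were sorted from meninges dissected together with dorsal root ganglia and nerve roots and sequenced with 10x 3' chemistry, 1 library per stage, each from 1 pooled litter. The labels name the tissue meninges and the cells boundary cap cells, but Cre marks any cell that once expressed *Egr2* and its progeny, so glia, neurons and other types are present. Each stage has a single library, so no difference below has a replicate check or a test, and stage, litter and library cannot be told apart. Intervals in parentheses are exact 95% intervals that cover counting error only.

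After filtering, 833 cells of E11.5 and 3496 of E12.5 were kept, with medians of 11601 and 6140 UMIs per cell, and 9 barcodes occurred in both libraries. Cells were sorted by UMIs of *Sox10*, a transcription factor of crest progenitors and glia, of the proneural genes *Neurog1*, *Neurog2*, *Neurod1* and *Neurod4*, and of *Isl1*, a transcription factor of sensory neurons. *Sox10*-only cells numbered 300 at E11.5 and 1049 at E12.5. *Sox10*-positive proneural cells numbered 113 and 164, proneural cells with neither *Sox10* nor *Isl1* 17 and 114, and cells with both *Sox10* and *Isl1* 104 and 286. *Isl1*-positive, *Sox10*-negative cells, with or without a proneural UMI, numbered 203 and 1337. The narrower gate of *Isl1* alone, with no proneural UMI, held 12 and 103. Only 2 and 52 of those fell in clusters named neuron-like, and their glia-like markers (13 genes, *Sox10* itself at 0) summed to 2441 and 2685 CPM (the UMIs of a group of cells scaled to 1000000) against 401 and 525 in all *Isl1*-positive, *Sox10*-negative cells. The 14 mesenchymal or pericyte markers summed to 895 and 1092 CPM against 80.7 and 99.9. At E12.5, 5211 of the 5213 globin and other erythroid UMIs of the narrow gate came from 1 cell. The broader gate is therefore used as the neuronal end below, a choice made after these cell numbers were seen, with the narrow gate beside it where it differs. As a cell type that should lack neuronal RNA, 56 and 225 cells with 3 or more mesenchymal or pericyte markers and no gate gene were used.

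Growing axons are pushed forward by a growth cone, whose microtubules are built from tubulin dimers, bundled and stabilised by microtubule-associated proteins, and kept dynamic by proteins of the stathmin family, which bind free tubulin. Sensory neurons of the dorsal root ganglia leave the cell cycle after expressing *Neurog1* or *Neurog2*, then turn on *Isl1* and extend axons to the skin, muscle and spinal cord. *Tubb3* encodes the neuronal class of beta-tubulin. *Stmn1* is the widely expressed stathmin, with a known role in the mitotic spindle, and *Stmn2*, *Stmn3* and *Stmn4* are its membrane-anchored relatives of neurons. *Dcx* encodes doublecortin, a microtubule-binding protein of newborn neurons. *Map1b*, *Map2* and *Mapt* encode microtubule-associated proteins, *Map1b* being abundant in young axons, *Map2* typical of dendrites and *Mapt* encoding tau. *Gap43* encodes a protein on the inner face of the growth cone membrane.

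The genes lie apart in the genome (GRCm39, GENCODE M39). *Tubb3* is on chromosome 8, from 124138163 to 124150092, *Dcx* on chromosome X, from 142638838 to 142716307, and *Map1b* on chromosome 13, from 99557954 to 99653137. *Stmn1* is on chromosome 4, from 134195021 to 134201882, *Stmn2* on chromosome 3, from 8574151 to 8626667, *Stmn3* on chromosome 2, from 180948247 to 180956293, and *Stmn4* on chromosome 14, from 66581745 to 66599131. *Map2* is on chromosome 1, from 66214327 to 66481746, *Mapt* on chromosome 11, from 104122024 to 104222946, and *Gap43* on chromosome 16, from 42068805 to 42161086. All are protein-coding and none overlaps another counted gene on its own strand, but genes on the opposite strand overlap *Stmn1*, *Map1b*, *Map2* and *Mapt*.

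Promoters of 4 of them are shown, chosen by the *Stmn2* division given below. In *Isl1*-positive cells without *Stmn2*, *Tubb3* and *Dcx* stood far above *Sox10*-only cells, and *Stmn3* and *Map1b* less so. In proneural-only cells, *Tubb3*, *Dcx*, *Map1b* and *Stmn3* had made 5.87%, 21.1%, 9.23% and 17.1% of their rise to the *Isl1*-positive level at E11.5. At E12.5 these shares were 14.5%, 17.8%, 8.63% and 1.62%, so the contrast was seen there at that stage only. RefSeq sequences on GRCm38.p6, from 250 bases before the start site to 50 after it, were matched for *Tubb3*, *Dcx*, *Stmn3*, *Map1b* and *Map2*. *Stmn1*, *Stmn2*, *Stmn4*, *Mapt* and *Gap43* were not matched. They run 5′ to 3′ on the gene's strand, and capitals mark CANNTG, the E-box that basic helix-loop-helix proteins such as the proneural factors can bind.
*Tubb3*, chr8:123411303-123411602, plus strand: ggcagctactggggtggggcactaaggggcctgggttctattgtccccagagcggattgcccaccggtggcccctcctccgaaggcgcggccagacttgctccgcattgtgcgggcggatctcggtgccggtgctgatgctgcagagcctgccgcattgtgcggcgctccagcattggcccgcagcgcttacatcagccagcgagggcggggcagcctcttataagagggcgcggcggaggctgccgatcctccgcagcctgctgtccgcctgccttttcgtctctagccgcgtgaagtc
*Dcx*, chrX:143933170-143933469, minus strand: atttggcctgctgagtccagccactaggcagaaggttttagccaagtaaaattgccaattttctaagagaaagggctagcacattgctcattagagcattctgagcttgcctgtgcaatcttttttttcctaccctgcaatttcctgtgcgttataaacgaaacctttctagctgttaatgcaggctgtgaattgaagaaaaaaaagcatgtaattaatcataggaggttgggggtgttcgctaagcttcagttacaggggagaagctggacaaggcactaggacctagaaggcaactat
*Stmn3*, chr2:181314451-181314750, minus strand: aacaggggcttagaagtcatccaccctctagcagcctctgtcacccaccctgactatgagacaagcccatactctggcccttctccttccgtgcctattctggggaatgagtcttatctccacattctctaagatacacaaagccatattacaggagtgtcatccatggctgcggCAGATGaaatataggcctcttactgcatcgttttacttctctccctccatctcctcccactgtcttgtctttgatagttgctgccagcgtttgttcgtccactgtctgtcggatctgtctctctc
*Map1b*, chr13:99516553-99516852, minus strand: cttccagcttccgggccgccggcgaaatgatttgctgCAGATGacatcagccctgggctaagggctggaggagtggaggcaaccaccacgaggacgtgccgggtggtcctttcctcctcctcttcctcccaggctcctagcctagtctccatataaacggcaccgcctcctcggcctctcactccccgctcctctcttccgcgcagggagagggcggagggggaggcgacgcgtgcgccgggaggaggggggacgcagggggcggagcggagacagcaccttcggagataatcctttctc
The *Stmn3* window holds 1 such motif, CAGATG, with its first base at position -75 from the start site, and the *Map1b* window holds CAGATG at -213. No CANNTG lies in the *Tubb3*, *Dcx* and *Map2* windows, searched on both strands. Of all 32851 promoter windows, 72.3% hold CANNTG and 17.2% hold CAGATG, which is also counted in the former. TATAAA lies in the *Dcx* and *Map1b* windows and in 13.6% of all.

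In *Isl1*-positive cells 9 of the 10 genes were higher than in *Sox10*-only cells at both stages, by factors that ranged from 2.91 for *Gap43* to 81.5 for *Dcx* at E11.5. *Map2* did not follow. A 4-fold difference was passed by 7 genes at E11.5 (*Tubb3*, *Stmn1*, *Stmn2*, *Stmn3*, *Stmn4*, *Dcx* and *Mapt*), where 4% of all genes tested pass it, and by 8 at E12.5 (*Map1b* added), where 5.9% do. All 10 had the 100 UMIs needed to be tested. At E11.5 *Stmn2*, *Stmn3*, *Stmn4*, *Dcx* and *Mapt* had them through the *Isl1*-positive cells, with 43, 27, 6, 8 and 40 UMIs in *Sox10*-only cells. At E12.5 *Stmn3*, *Stmn4*, *Dcx* and *Mapt* did, with 64, 34, 19 and 89. The members were also chosen with earlier results of these data known. Counts above the shares, here and in the narrow gate, were thus likely beforehand and only describe the members. Into the narrow *Isl1*-only gate, 6 genes at E11.5 (*Tubb3*, *Stmn2*, *Stmn3*, *Stmn4*, *Dcx* and *Mapt*) and 8 at E12.5 (also *Map1b* and *Gap43*) were 4-fold higher, against 0.68% and 1.57% of genes tested (8.52% and 11.3% with no minimum of UMIs). There 6 and 9 of the 10 had 100 UMIs in the pair of gates. Without the deepest 5% of cells the E11.5 count fell to 3, and the deepest cell carries 21.3% of that gate's UMIs. In the narrow gate of E11.5 the highest cell of each gene held 106 of 119 *Tubb3* UMIs, 90 of 98 of *Stmn2* and 26 of 32 of *Stmn3*. For *Stmn4* this was 14 of 19, for *Dcx* 9 of 9 and for *Mapt* 19 of 22. The levels of these 6 genes there thus rest mostly on 1 cell each.

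*Tubb3* had the clearest difference between the ends. At E11.5 it stood at 85.8 CPM (76.5–95.9) in *Sox10*-only cells and 88.4 (73.7–105) in *Sox10*-positive proneural cells. It was 328 (226–460) in proneural-only cells, 1158 (1101–1217) in cells with *Sox10* and *Isl1*, and 4208 (4125–4292) in *Isl1*-positive cells. At E12.5 the same steps read 86.2 (79.3–93.6), 109 (91.3–129), 732 (663–807), 1509 (1457–1561) and 4527 (4483–4571). From the first to the second group it was flat at E11.5 and slightly higher at E12.5, and each later group was higher than the one before.

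*Dcx* followed the same steps with far fewer UMIs. It had 8 UMIs in the *Sox10*-only cells of E11.5 (2.21 CPM, 0.953–4.35) and none in the *Sox10*-positive proneural cells, which allows up to 2.09 CPM. Proneural-only cells held 4 UMIs (39.7 CPM, 10.8–102), 3 of them in 1 cell, and cells with *Sox10* and *Isl1* 60.7 (48.2–75.4), against 180 (163–198) in *Isl1*-positive cells. At E12.5 the values were 2.87 (1.73–4.48), 5.79 (2.33–11.9), 36.2 (22.1–55.8), 65.6 (55.2–77.3) and 190 (181–199) CPM. The first group in which *Dcx* stood clear of the *Sox10*-only level was thus the proneural-only one, at both stages.

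*Stmn1* was present at every step. In *Sox10*-only, *Sox10*-positive proneural, proneural-only, *Sox10* and *Isl1*, and *Isl1*-positive cells it was 1494, 1696, 1848, 3740 and 7117 CPM at E11.5, and 1455, 1750, 4014, 3981 and 7218 CPM at E12.5. It was the only gene whose level in *Sox10*-positive proneural cells was above that of *Sox10*-only cells at both stages with an interval clear of 1, by 1.14-fold (1.08–1.19) and 1.20-fold (1.15–1.26). *Tubb3* cleared it at E12.5 only, at 1.27-fold (1.04–1.53).

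The other stathmins had their larger steps in the *Isl1*-positive groups. *Stmn2* was 11.9 CPM (8.59–16.0) in *Sox10*-only cells of E11.5, 10.4 (5.84–17.2) with a proneural gene, 19.9 (2 UMIs) in proneural-only cells, 122 (104–142) with *Sox10* and *Isl1*, and 832 (796–870) in *Isl1*-positive cells. At E12.5 it was 29.0, 32.2, 61.5, 321 and 1260 CPM in the same order. *Stmn3* read 7.45, 6.96, 29.8 (3 UMIs), 18.7 and 138 CPM at E11.5 and 9.67, 13.2, 14.5, 72.5 and 305 at E12.5. Both genes thus rose mostly where *Isl1* was present, though *Stmn2* in proneural-only cells of E12.5 was already 2.12-fold (1.43–3.06) its *Sox10*-only level. *Stmn4* had 6 UMIs in *Sox10*-only cells of E11.5 (1.66 CPM), 2 with a proneural gene, none in proneural-only cells (up to 29.8 CPM) and 11 with *Sox10* and *Isl1* (8.24), and reached 77.3 CPM (66.4–89.5) in *Isl1*-positive cells. At E12.5 it was 5.14, 6.62, 12.7, 37.7 and 158 CPM.

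Among the microtubule-associated proteins, *Mapt* was 11.03, 6.96, 29.8 (3 UMIs), 19.5 and 63.1 CPM over those 5 groups at E11.5 and 13.4, 12.4, 14.5, 35.3 and 108 at E12.5. Tau RNA in proneural-only cells of E12.5 was 1.08-fold (0.451–2.21) the *Sox10*-only level. *Map1b* started higher, at 284, 313, 358, 445 and 1086 CPM and at 228, 242, 369, 728 and 1866 CPM. Its rise before *Isl1* was small, 1.62-fold (1.39–1.88) in proneural-only cells of E12.5. *Map2* did not rise with *Isl1*, at 53.0 CPM (45.7–61.0) in *Sox10*-only and 47.2 (38.8–56.9) in *Isl1*-positive cells of E11.5, a ratio of 0.892 (0.699–1.13), and at 58.6 and 65.0 CPM at E12.5, a ratio of 1.11 (0.974–1.26).

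*Gap43* was lower in both proneural groups without *Isl1* than in *Sox10*-only cells, and highest in *Isl1*-positive cells. At E11.5 it was 147 CPM (134–160) in *Sox10*-only cells, 104 (88.4–122) with a proneural gene, 59.6 (21.9–130; 6 UMIs) in proneural-only cells, 170 (149–194) with *Sox10* and *Isl1* and 426 (400–453) in *Isl1*-positive cells. At E12.5 it was 165 (155–175), 116 (97.4–137), 109 (82.8–140), 252 (231–274) and 613 (597–629) CPM. The level with a proneural gene was 0.713 (0.591–0.856) and 0.702 (0.584–0.838) of that in *Sox10*-only cells. *Gap43* was the only member whose interval lay below 1 at this step in both libraries. Its level also varied among *Sox10*-only cells, as given below, and the part of that in this step was not tested.

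**Figure D1:**
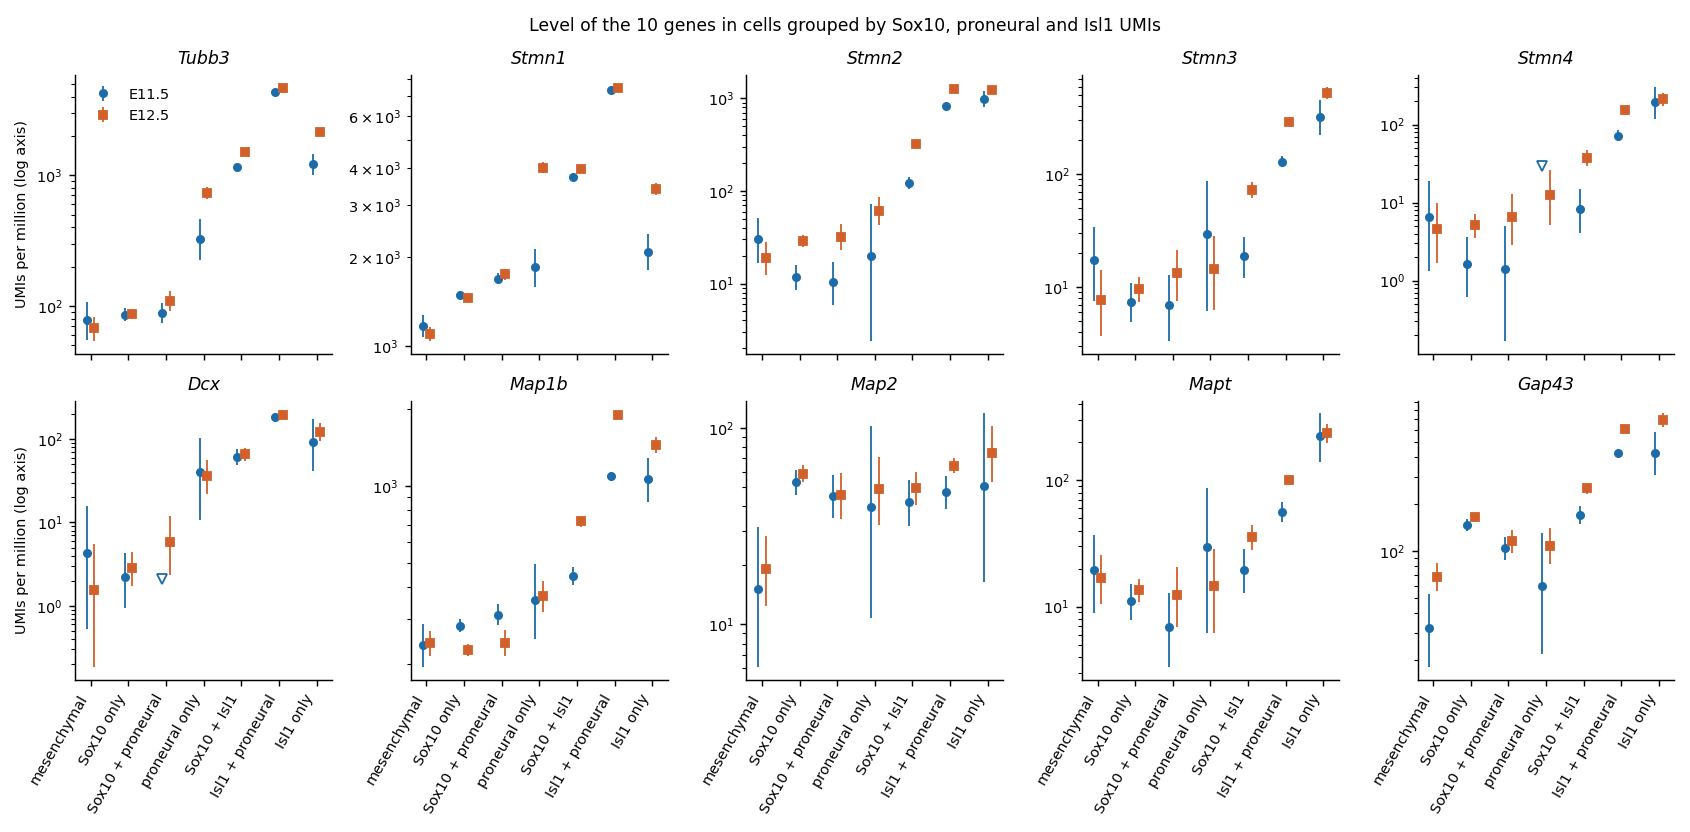
Level of each gene in CPM (summed UMIs scaled to 1000000, log axis) in the groups of cells along the x axis, circles and squares for the 2 libraries, bars exact 95% Poisson intervals, open triangles the level that 3 UMIs would give where none was counted. At E11.5 *Tubb3* climbs from 85.8 CPM in *Sox10*-only to 4340 in *Isl1*-positive proneural cells and stands at 1210 in the 12 *Isl1*-only cells, while *Map2* stays between 39.7 and 53.0 CPM in the 6 groups from *Sox10*-only to *Isl1*-only.

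By counts, 0 of 10 genes at E11.5 and 1 at E12.5 (*Dcx*, 2.02-fold, 0.717–5.01) reached a 2-fold higher level in *Sox10*-positive proneural cells, against 0.348% and 0.358% of genes tested. In proneural-only cells 4 genes (*Tubb3*, *Stmn3*, *Dcx* and *Mapt*) and 5 (*Tubb3*, *Stmn1*, *Stmn2*, *Stmn4* and *Dcx*) reached it, against 5.97% and 3.31%. These shares cover only genes with 100 or more UMIs in the 2 groups compared. *Dcx* had fewer in each of these cases, as did *Stmn3* and *Mapt* in proneural-only cells of E11.5 and *Stmn4* in those of E12.5. For these genes the shares are not a like comparison. Only *Tubb3* and *Dcx* had intervals above 2 at both stages, at 3.82-fold (2.59–5.48) and 18.0-fold (3.97–67.2), then 8.49-fold (7.46–9.66) and 12.6-fold (6.38–24.95). *Stmn1* was 1.24-fold (1.06–1.43) and 2.76-fold (2.63–2.89), and at E11.5 1 cell held 64 of its 186 UMIs in proneural-only cells. The 17 proneural-only cells of E11.5 were shallow, with a median of 2961 UMIs, only 1 lay in a neuron-like cluster, and their mesenchymal markers summed to 1331 CPM, whose part in their values was not tested. At E12.5, 55 of 114 lay in a neuron-like cluster. The 114 summed to 3122 CPM of glia-like, 506 of mesenchymal and 1510 of neuron-like markers, and the 55 alone to 451, 63.1 and 2931. The levels and shares of the rise in proneural-only cells of E12.5 thus also mix unlike cells, and the part of each kind was not tested. Of the cells with *Sox10* and *Isl1*, 34 of 104 and 102 of 286 lay in neuron-like clusters. As a whole they summed to 2162 and 4210 CPM of glia-like and 2116 and 2836 CPM of neuron-like markers. These sums mix unlike cells. In the 34 and 102 cells alone they were 432 and 504 CPM of glia-like and 4859 and 7032 CPM of neuron-like markers. With 2 UMIs required of *Sox10* and of *Isl1*, 26 and 27 cells remained. Whether some of the cells with *Sox10* and *Isl1* are pairs of cells was not tested. Taking 50% of the rise to the narrow *Isl1*-only level as onset, *Stmn1* alone had passed it in proneural-only cells at both stages. At E11.5 this rests in part on the 1 cell with 64 *Stmn1* UMIs. *Stmn1* is also not among the genes 4-fold higher in that gate. Of the 6 and 8 members that are, none had, where 25% and 21% of all such genes had. Against the broader gate none of the members had either, where 17.9% and 20.8% of the genes 4-fold higher in it had.

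The order within *Isl1*-positive cells was examined by splitting them on *Stmn2*, a division chosen after the values were seen. At E11.5, 108 of 203 cells (53.2%, 46.1–60.2) had no *Stmn2* UMI and 85 had 2 or more. At E12.5, 499 of 1337 (37.3%, 34.7–40.0) had none and 717 had 2 or more. Cells without *Stmn2* were shallower (medians 9877 against 13510 UMIs at E11.5, 5406 against 7401 at E12.5) and held *Neurog1* in 71.3% against 64.7% and 44.9% against 19.0% of cells. They also held 2 or more cell cycle genes more often, in 43.5% against 14.1% and 21.6% against 5.72%. The part of depth in the split was addressed by thinning, below.

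*Isl1*-positive cells without *Stmn2* already held 3 of the genes far above *Sox10*-only cells. *Tubb3* was 26.0-fold (23.1–29.4) and 25.1-fold (23.0–27.4) higher, *Dcx* 35.0-fold (17.0–83.8) and 35.2-fold (22.1–59.3), and *Stmn1* 4.47-fold (4.32–4.63) and 4.81-fold (4.70–4.93). *Map1b* was 1.63-fold (1.46–1.82) and 3.11-fold (2.90–3.32) higher. *Gap43*, at 0.938 (0.777–1.12) and 1.09 (0.981–1.21), and *Mapt*, at 0.989 (0.472–1.92) and 1.15 (0.784–1.67), stood at the *Sox10*-only level. *Stmn4*, at 0.549 (1 UMI) and 1.44 (0.794–2.55), did not stand above it either, and *Stmn3* did so at E12.5, by 2.88-fold (2.04–4.06). *Map2* was lower, at 0.532 (0.352–0.781) and 0.468 (0.362–0.599).

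Cells with 2 or more *Stmn2* UMIs held the remaining genes. Over cells without *Stmn2*, *Stmn3* was 25.1-fold (14.1–49.0) and 17.5-fold (14–22.2) higher, *Mapt* 11.1-fold (6.14–22.0) and 10.9-fold (8.03–15.1), and *Gap43* 5.29-fold (4.45–6.34) and 4.95-fold (4.52–5.43). *Stmn4* had a single UMI in the *Stmn2*-negative cells of E11.5, a ratio of 176 (31.3–7008), and was 34.6-fold (22.6–56.2) higher at E12.5. *Map1b* was 3.73- and 3.69-fold, *Dcx* 3.69- and 2.44-fold, *Tubb3* 2.78- and 2.76-fold and *Map2* 2.45- and 3.29-fold higher. *Stmn1* differed least, at 1.12 (1.09–1.16) and 1.03 (1.02–1.05), and the E12.5 value fell below 1 in both other versions of the split. A 2-fold difference was passed by 8 of the 9 members other than *Stmn2* at each stage, against 7.74% and 9.07% of genes tested. None was 2-fold lower, against 5.39% and 5.58%. The cells were split on a member, and the members were chosen with earlier results of these data known. A count above the shares was thus likely beforehand and does not bear on the order. *Nefm*, a neurofilament subunit of maturing axons, was 14.2- and 9.57-fold higher, *Isl1* 1.91- and 1.94-fold, and *Neurog1* 0.376 and 0.245 of its level in the cells without *Stmn2*.

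*Stmn3*, *Mapt*, *Gap43* and *Tubb3* kept this order when depth was made equal. With every cell thinned to 2000 UMIs and divided by 1 remaining *Stmn2* UMI, *Stmn3* was 18.4- and 10.8-fold higher, *Mapt* 8.01- and 7.13-fold, *Gap43* 4.85- and 4.31-fold and *Tubb3* 2.51- and 2.23-fold. Inside neuron-like clusters only, *Stmn3* was 22.0- and 14.7-fold, *Mapt* 11.7- and 11.6-fold, *Gap43* 4.94- and 4.10-fold and *Tubb3* 2.45- and 2.19-fold higher. *Stmn1* was 1.12 and 0.996 in the former and 1.02 and 0.881 in the latter.

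**Figure D2:**
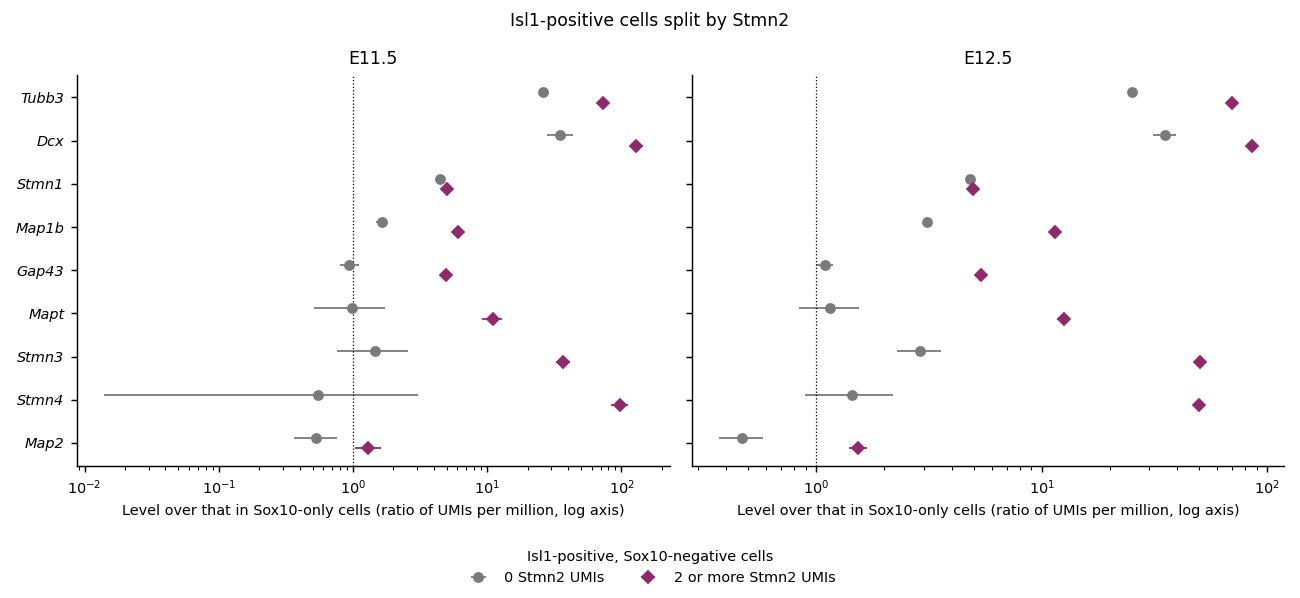
Level of each gene in *Isl1*-positive cells without a *Stmn2* UMI (circles) and with 2 or more (diamonds), divided by its level in *Sox10*-only cells of the same stage (dotted line at 1, log axis), bars 95% Poisson intervals of the *Isl1*-positive level alone. *Tubb3*, *Dcx* and *Stmn1* lie right of the line in both kinds of cell, while *Gap43* moves from 0.938 at E11.5 in the circles to a level 5.29 times higher in the diamonds.

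Detection in single cells after thinning was nested in the same direction for *Tubb3*, *Stmn4* and *Mapt* beside *Stmn2*, but not for *Dcx*. At E11.5, 101 of 203 *Isl1*-positive cells had *Tubb3* and no *Stmn2*, and 0 had *Stmn2* and no *Tubb3*. At E12.5 the numbers were 485 and 4 of 1291. *Stmn2* was found without *Stmn4* in 62 cells and *Stmn4* without *Stmn2* in 0 at E11.5, and in 490 and 7 at E12.5. *Stmn2* without *Mapt* was found in 67 and 562 cells, and *Mapt* without *Stmn2* in 3 and 21. A gene with fewer UMIs is missed more often, so such nesting is in part set by abundance and cannot by itself give an order. Before thinning, these cells of E11.5 held 9799 UMIs of *Tubb3* and 1938 of *Stmn2*. *Dcx*, with 419 UMIs in these cells of E11.5 before thinning against 180 of *Stmn4* and 147 of *Mapt*, was found without *Stmn2* in 21 cells and *Stmn2* without *Dcx* in 46, and in 104 and 430 at E12.5.

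Proneural genes gave a second division of the *Isl1*-positive cells. *Neurog1* was present in 139 and 415 of them, *Neurod1* without *Neurog1* in 48 and 814, and neither in 16 and 108. Cells with *Neurod1* and no *Neurog1* held *Mapt* at 6.72-fold (4.53–10.1) and 3.07-fold the level of the *Neurog1* cells, *Stmn4* at 3.76- and 3.38-fold, *Stmn3* at 3.25- and 2.83-fold and *Stmn2* at 3.22- and 2.92-fold. *Gap43* differed by 1.88- and 2.14-fold, *Map1b* by 1.66- and 1.84-fold, *Dcx* by 1.46- and 1.53-fold, and *Tubb3* by 1.36- and 1.55-fold. *Stmn1* was 0.877 (0.845–0.910) and 0.985. *Mapt*, *Stmn4*, *Stmn3* and *Stmn2* thus differed most between these cells.

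Cells with neither proneural gene held *Mapt* at 8.17- and 5.7-fold and *Stmn3* at 3.13- and 3.90-fold the level of *Neurog1* cells, but *Tubb3* at 0.254 and 0.630 and *Stmn1* at 0.258 and 0.460. At E11.5 the highest of the 16 cells for each gene held 19 of 23 *Mapt*, 26 of 32 *Stmn3*, 106 of 125 *Tubb3* and 89 of 241 *Stmn1* UMIs. The E11.5 ratios, *Stmn1* apart, thus rest mostly on 1 cell. Glia-like markers of the cells with neither gene summed to 2437 and 2566 CPM, against 288 and 575 in *Neurog1* cells, and their mesenchymal markers to 1080 and 1036 against 29.1 and 46.4. Inside neuron-like clusters, which hold 2 of the 16 and 56 of the 108 cells, the glia-like sum at E12.5 was 268 CPM, *Tubb3* turned to 1.15-fold higher and *Stmn1* was at 0.738. *Mapt* there was 10.6-fold, *Stmn3* 7.26-fold, *Stmn4* 6.26-fold, *Stmn2* 4.18-fold and *Gap43* 3.63-fold the level of *Neurog1* cells in those clusters. At E11.5 the 2 cells gave *Tubb3* at 1.20-fold and *Dcx* at 2.30-fold, so the lower *Tubb3* of this group is not seen among cells in neuron-like clusters.

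**Figure D3:**
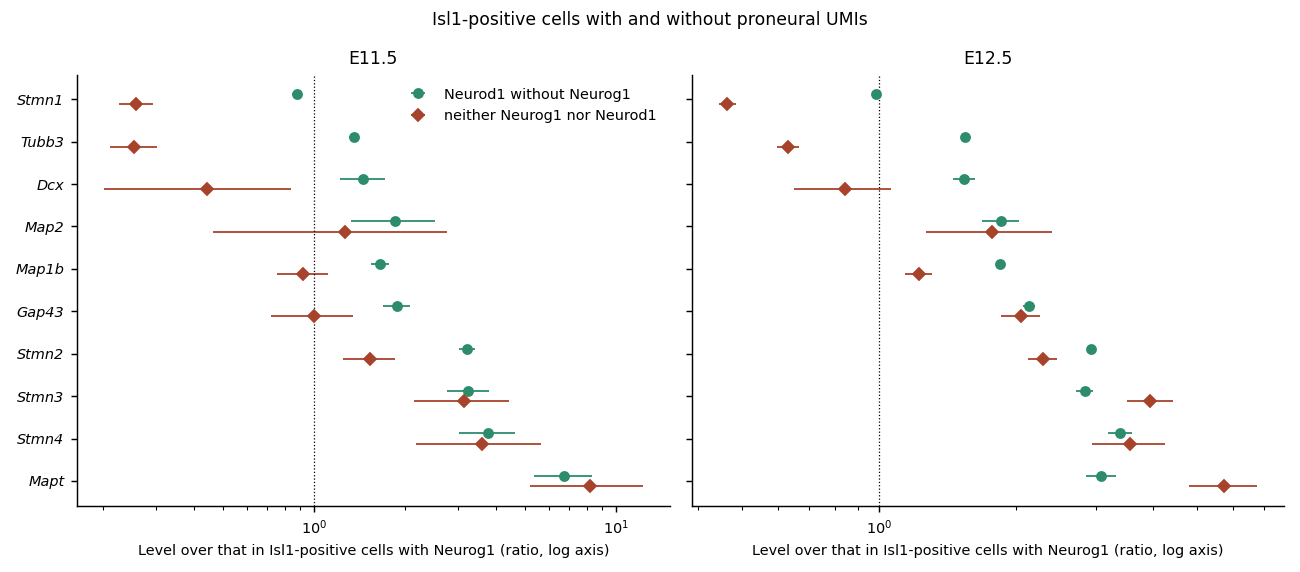
Level of each gene in *Isl1*-positive, *Sox10*-negative cells, divided by that in such cells with *Neurog1* at the same stage (dotted line at 1, log axis). Circles are cells with *Neurod1* and no *Neurog1*, diamonds cells with neither. Bars are 95% Poisson intervals of the plotted level alone. In the circles *Mapt* lies at 6.72-fold at E11.5 and 3.07-fold at E12.5, and *Stmn1* at 0.877 and 0.985.

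The share of cells with a UMI was compared after thinning each cell to 2000 UMIs, which leaves out 36 of the 1049 *Sox10*-only and 46 of the 1337 *Isl1*-positive cells at E12.5 and none at E11.5. *Tubb3* was found in 15.0% (11.2–19.6) and 16.5% (14.2–18.9) of *Sox10*-only cells, 35.3% (14.2–61.7) and 46.5% (36.6–56.7) of proneural-only cells and 88.2% (82.9–92.3) and 91.1% (89.4–92.6) of *Isl1*-positive cells. The mesenchymal cells, at medians of 8103 and 5747 UMIs before thinning against 12439 and 5905 in *Sox10*-only cells, gave 8.93% (2.96–19.6) and 11.2% (7.32–16.2). Unthinned, *Tubb3* was found in 50.7% and 37.2% of *Sox10*-only, 94.1% and 94.99% of *Isl1*-positive and 37.5% and 30.7% of mesenchymal cells. *Tubb3* was thus detected in most neurons and in a share of glia with an interval that overlaps the mesenchymal one.

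*Stmn2* was found after thinning in 2.33% and 5.82% of *Sox10*-only cells, 38.4% and 53.8% of *Isl1*-positive cells and 3.57% and 3.74% of mesenchymal cells, and unthinned in 9%, 46.8% and 16.1% at E11.5 and 13.9%, 62.7% and 10.7% at E12.5. *Dcx* reached 26.1% and 28.6% of *Isl1*-positive cells, from 0.667% and 0.494% in *Sox10*-only cells, and unthinned 61.6% and 59.1% from 1.67% and 1.62%. *Stmn1* was found in 95.3% and 89.7% of *Sox10*-only cells and in 85.7% and 84.1% of mesenchymal cells, so its detection does not mark neurons. *Map2* was found in 9.33% and 10.1% of *Sox10*-only, 9.36% and 10.2% of *Isl1*-positive, and 1.79% and 1.87% of mesenchymal cells. A median of 2 of the 10 genes was detected per *Sox10*-only cell and of 4 and 5 per *Isl1*-positive cell, and 5 or more were found together in 0.667% and 0.691% of the former and 37.9% and 52.8% of the latter.

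**Figure D4:**
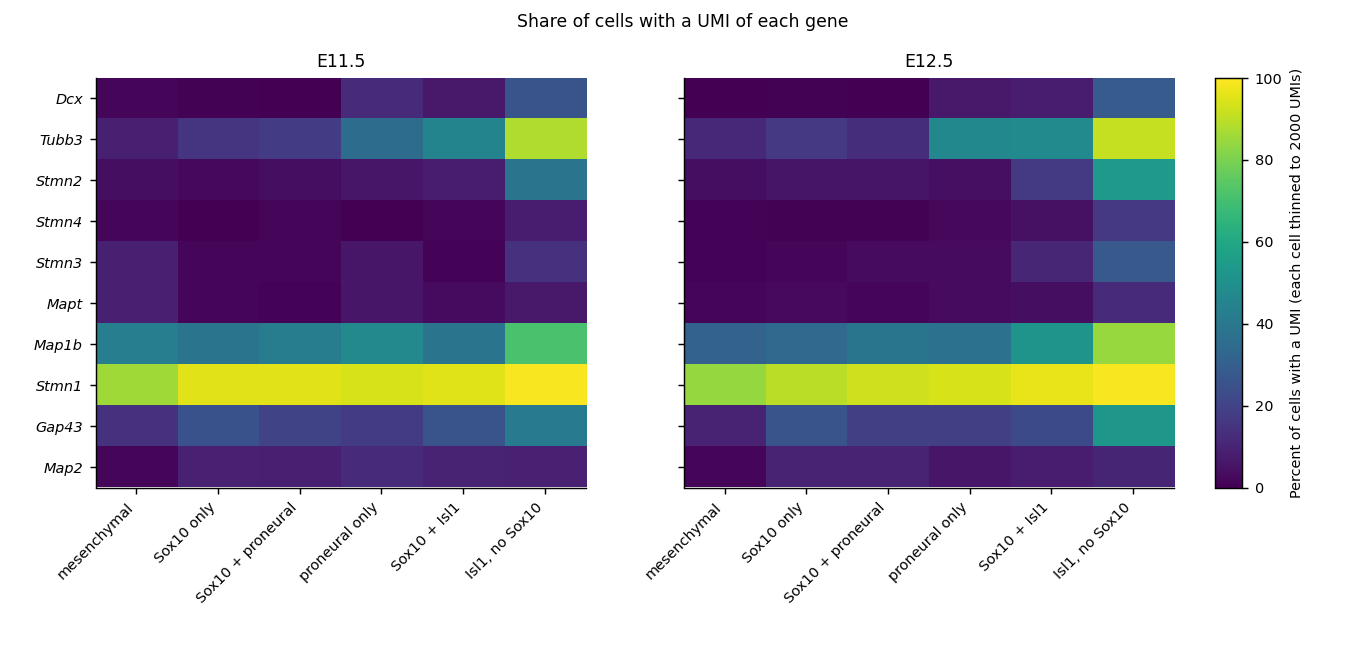
Percent of cells with at least 1 UMI of each gene (colour scale, 0 to 100%), each cell thinned to 2000 UMIs, by group of cells (x axis) at E11.5 and E12.5. *Tubb3* goes from 15.0% of *Sox10*-only to 88.2% of *Isl1*-positive cells at E11.5, while *Stmn1* is bright in every column.

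In the glia, the level of each gene can be set against that in the *Isl1*-positive cells of the same library. *Sox10*-only cells held *Tubb3* at 2.04% and 1.91% of the neuronal level, *Stmn2* at 1.43% and 2.30%, *Dcx* at 1.23% and 1.51%, *Stmn4* at 2.14% and 3.26% and *Stmn3* at 5.40% and 3.17%. The 14 other neuron-like marker genes had a median of 2.50% and 2.42% and ranged from 0.531% to 29.3% and from 0.930% to 9.02%. These 5 genes lay within that range at both stages. *Mapt*, *Stmn1* and *Map1b*, given next, also lay within it at E11.5 but above it at E12.5. The upper end at E11.5 was 1 gene, *Ina* at 29.3%, and the upper quartile of the 14 was 5.8% and 5.6%. A list of neuron markers does not stand for neuronal genes in general. *Mapt* stood at 17.5% and 12.5%, *Stmn1* at 21.0% and 20.2%, *Map1b* at 26.1% and 12.2%, *Gap43* at 34.4% and 26.9% and *Map2* at 112% and 90.2%. Mesenchymal cells held *Tubb3* at 1.85% and 1.49%, *Stmn2* at 3.64% and 1.52% and *Mapt* at 30.8% and 15.6% of the neuronal level.

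Above the mesenchymal cells, with the intervals of both levels apart, stood 3 of 10 genes at each stage, against 18.6% and 17.2% of genes tested. A count of 3 in 10 is not far from these shares and is not read as a trait of the set. Only 5 of the 10 at E11.5 and 7 at E12.5 had the 100 UMIs that the shares require, the 3 genes among them. *Gap43* was 4.52-fold (2.72–8.13) and 2.40-fold (1.93–3.01) higher in *Sox10*-only cells, *Map2* 3.50-fold (1.67–8.83) and 3.07-fold (2.05–4.80) and *Stmn1* 1.28-fold (1.17–1.40) and 1.32-fold (1.25–1.40). *Tubb3*, at 1.10 (0.780–1.60) and 1.28 (1.02–1.62), *Dcx*, *Stmn3*, *Stmn4*, *Mapt* and *Map1b* did not have separate intervals. *Dcx*, *Stmn3* and *Stmn4* at both stages and *Mapt* at E11.5 had under 100 UMIs, so for them the overlap says little. *Stmn2* was lower in *Sox10*-only than in mesenchymal cells at E11.5, at 0.392 (0.210–0.776), and at 1.52 (0.998–2.40) at E12.5. It too had under 100 UMIs at E11.5. Of its 43 UMIs in *Sox10*-only cells 12 lay in 1 cell, and of 14 in mesenchymal cells 5 did. After thinning to 2000 UMIs none of the 10 passed at E11.5. The 31 cells of E12.5 that carried myeloid markers gave a further comparison, with *Tubb3* at 52.1 CPM (27.7–89.1) and *Stmn1* at 750 (646–865), and with 0 UMIs of *Dcx*, *Map2* and *Mapt*, each of which allows up to 12.02 CPM. In these sums of E12.5 *Stmn1*, *Gap43* and *Map2* were higher in glia than in both other types of cell.

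**Figure D5:**
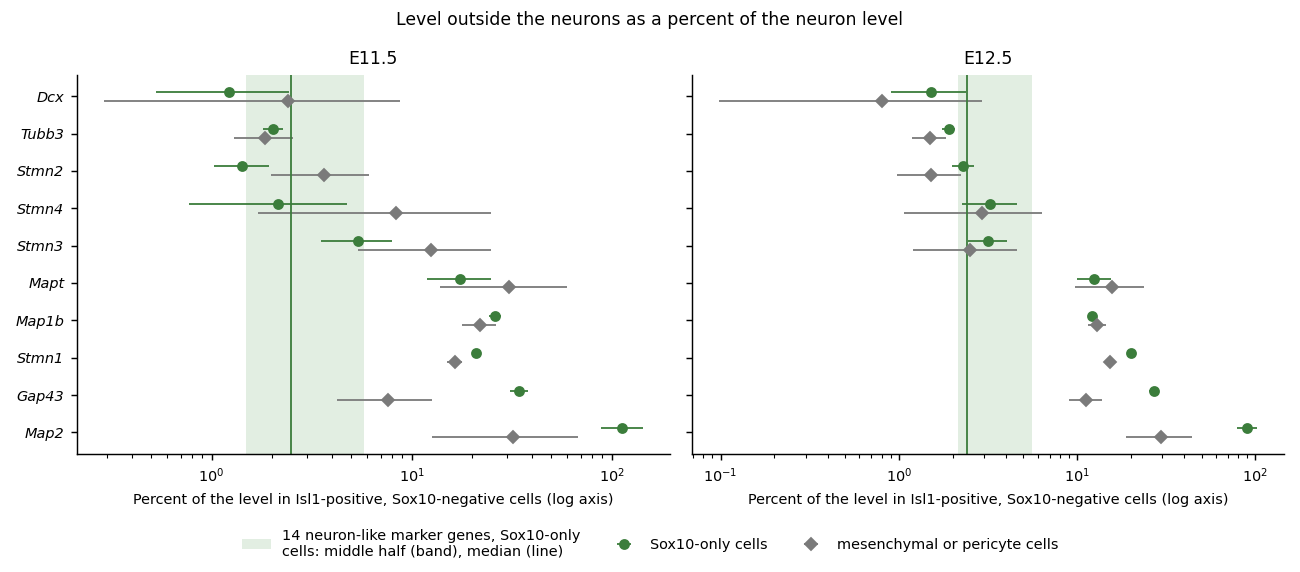
Level of each gene in *Sox10*-only and in mesenchymal cells as a percent of its level in *Isl1*-positive cells of the same stage (log axis). Bars are exact 95% conditional binomial intervals of this ratio, which cover the counting error of both levels. The line is the median and the band the middle 50% of 14 neuron-like markers in *Sox10*-only cells. *Tubb3*, *Stmn2* and *Dcx* lie between 1.23% and 2.30% in *Sox10*-only cells, and *Map2* lies at 112% and 90.2%.

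The neuronal UMIs in glia came from many cells for *Tubb3*, with 311 UMIs over 152 of 300 *Sox10*-only cells and at most 17 in 1 cell at E11.5, and 571 over 390 of 1049 cells and at most 10 at E12.5. Of 43 *Stmn2* UMIs at E11.5 12 lay in 1 cell, against 14 of 192 at E12.5, and of 8 *Dcx* UMIs 4 did, against 3 of 19. For these 2 genes 1 cell thus weighed more at E11.5. *Stmn2* in *Sox10*-only cells was 2.44-fold (1.75–3.49) higher at E12.5 than at E11.5, while *Tubb3* was 1.01-fold (0.874–1.16).

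Among *Sox10*-only cells of E12.5, *Gap43* and *Map2* were higher in the 417 cells with *Prss56* or *Egr2*, the marker genes of boundary cap cells, than in the other 632, at 210 CPM (193–229) against 135 (124–147) and at 73.9 (63.9–85.0) against 48.5 (41.9–55.8). At E11.5 the *Gap43* levels were 158 (141–178) and 134 (118–152) and the *Map2* levels 60.5 (49.8–73.0) and 45.4 (36.1–56.3), all with overlapping intervals. *Gap43* was lower in the 104 cells of E12.5 with *Hes5*, a Notch target, than in the others, at 77.9 CPM (59.98–99.4) against 177 (167–188), and at E11.5 the 22 such cells had 106 (73.6–147) against 151 (138–164), with overlapping intervals.

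*Stmn1* was higher in cycling cells. *Sox10*-only cells with 2 or more of 6 cell cycle genes held it at 1.74-fold (1.65–1.85) the level of cells with none at E12.5, where 6.75% of genes tested were 1.5-fold higher. At E11.5, with 17 cells that had no cell cycle gene, the ratio was 1.17 (0.982–1.40). At E12.5 *Stmn2* was at 0.625 (0.441–0.894), and the intervals of the other members reached 1.

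Between the stages, *Stmn2*, *Stmn3*, *Stmn4*, *Map1b* and *Mapt* differed most. In *Isl1*-positive cells *Stmn3* was 2.21-fold (1.97–2.49) higher at E12.5 than at E11.5, *Stmn4* 2.04-fold (1.74–2.39), *Map1b* 1.72-fold (1.65–1.79), *Mapt* 1.71-fold (1.43–2.04) and *Stmn2* 1.51-fold (1.44–1.59). These 5 passed 1.5-fold, against 11.2% of genes tested, and none was lower. *Gap43* was 1.44-fold and *Map2* 1.38-fold higher, whereas *Tubb3* at 1.08, *Dcx* at 1.06 and *Stmn1* at 1.01 were at nearly the same level. Within cells that held 2 or more *Stmn2* UMIs, *Stmn3* was 1.78-fold, *Stmn4* 1.60-fold, *Map1b* 1.51-fold and *Mapt* 1.39-fold higher at E12.5, and *Dcx* was at 0.863. In the narrow *Isl1*-only gate *Tubb3*, *Stmn1*, *Stmn3* and *Gap43* passed 1.5-fold, against 14.6% of genes tested (22.5% in either direction), and none did once the cells with erythroid genes were left out, which takes 2 of the 12 cells at E11.5.

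*Isl1*-positive cells with *Ntrk3*, the neurotrophin receptor of proprioceptive and some mechanoreceptive neurons, and no *Ntrk2* numbered 39 and 119. They held *Stmn2* at 2156 CPM (2031–2287) and 1760 (1675–1848), *Mapt* at 209 (171–252) and 162 (137–191), and *Gap43* at 844 (766–927) and 801 (744–861). Each of these levels was above that of *Isl1*-positive cells as a whole, which include them and the cells without *Stmn2*. *Isl1*-positive cells with 2 or more *Stmn2* UMIs held *Stmn2*, *Mapt* and *Gap43* at 1728, 121 and 727 CPM at E11.5. At E12.5 they held 2071, 168 and 891 CPM. Beside those cells the *Ntrk3* cells were thus higher at E11.5 and not higher at E12.5.

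Among 70 other genes of tubulin, microtubule-associated and growth cone proteins, 55 had 100 UMIs or more in *Isl1*-positive and *Sox10*-only cells together at both stages, a minimum set after values were seen. In *Isl1*-positive cells 14 and 15 were 4-fold higher than in *Sox10*-only cells (E11.5, E12.5). Of all genes with 100 UMIs at the stage in question, 4% and 5.9% were. At each stage 1, *Kif21a*, a kinesin gene, was 4-fold lower, at 0.245 (0.185–0.320) and 0.217 (0.190–0.248), with no share over all genes beside it. The median ratio of the 55 was 1.45 and 1.84, beside 0.924 and 0.940 for all genes with as many UMIs. *Ttll7*, a tubulin-modifying enzyme, was 34.5-fold (21.6–58.8) and 48.4-fold (33.6–72.5) higher, and *Crmp1* and *Dpysl4*, of the collapsin response mediator family, 20.4- and 33.6-fold and 25.1- and 19.3-fold, these 4 genes being named after their values were seen. Among the 41 genes with 100 UMIs even when the narrow *Isl1*-only gate is used, from which the remaining names were drawn, *Mllt11* was at 15.9-fold (12.4–20.8) and 19.9-fold (16.8–23.7) in all *Isl1*-positive cells. *Nav2*, a cytoskeletal neuron navigator gene, was at 11.3- and 10.9-fold, and the tubulin genes *Tubb2b* at 4.71- and 7.85-fold and *Tubb2a* at 4.23- and 6.39-fold. *Dpysl3*, of the same family as *Crmp1*, went the other way at 0.262 (0.234–0.293) and 0.378 (0.358–0.399), as did the tubulin genes *Tuba1c* at 0.501 and 0.333 and *Tubb4b* at 0.591 and 0.648. *Katna1*, a subunit of the microtubule-severing enzyme katanin, was at 0.938 and 1.01. *Nav2* had already reached 183 CPM in *Sox10*-positive proneural cells of E11.5 from 84.7 in *Sox10*-only cells, a step that *Tubb3* had not made. At E12.5 *Nav2* went from 91.1 to 124 CPM, and *Tubb3* was also higher at that step, so this difference was seen at E11.5 only.

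Over 12 points, the 6 groups of cells in each library, the genes most like each member by Pearson's r of log2(CPM + 10), among 5839 genes, were *Aplp1* (0.99) and *Gng2* for *Tubb3*, *Ebf1* (0.99) and *Aplp1* for *Dcx*, and *Cemip2* (0.99) and *Nhlh1* for *Stmn1*. *Stmn2* was closest to *Rtn1* (0.99) and *Nefm*, *Stmn3* to *Olfm1* (0.98) and *Gng3*, *Stmn4* to *Gng3* (0.98) and *Abhd8*, and *Mapt* to *Arpc3* (0.98) and *Fry*. *Map1b* was closest to *Uchl1* (0.98) and *Rab3a*, *Gap43* to *Pde4dip* (0.97) and *Map1lc3a*, and *Map2*, the loosest, to *Mmp16* (0.92) and *Rap1gds1*. The points of a library share depth and cells' RNA background, so these values only describe likeness.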

How the data were processed

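Gene expression was measured in sorted Tomato-positive cells of embryos of both stages. The authors deposited whole-number UMI counts per gene and cell barcode, not normalized, made with Cell Ranger (7.0 in the labels, 7.0.1 in the matrix header) on an mm39 reference. Whether intronic reads were counted is not given in the sources used here. Total UMIs were 10287595 (E11.5) and 23460243 (E12.5).

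Cells with over 10% mitochondrial UMIs, under 2000 (E11.5) or 1000 (E12.5) UMIs, or a Scrublet score of 0.2 or more (scanpy 1.11.5) were removed, which leaves 9541971 and 22456846 UMIs. Cells were gated by 1 UMI or more of the gate genes, and UMIs were summed per gate and scaled to 1000000 (CPM). Sums have exact Poisson, ratios exact conditional binomial and shares exact Clopper-Pearson intervals (scipy 1.17.1). Only the ratio intervals were tried on simulated data. Those were Poisson counts with no spread between cells, so they cannot show how the intervals hold for these cells. A count of 0 is given with the level that 3 counts would make. Thinning drew 2000 UMIs per cell without replacement. Background shares count genes with 100 or more UMIs in the 2 gates compared, and a member is counted without that minimum. Clusters (3000 variable genes, 30 components, 15 neighbours, Leiden resolution 1, members left out) were named from marker lists. The named genes are all members, the gate genes, the 4 pathway genes with the largest and the 4 with the smallest ratio of *Isl1*-only over *Sox10*-only cells, and the 2 most alike genes per member. The members and lists were chosen with earlier results of these data known. *Nefm*, the glial and *Ntrk3* divisions, the *Stmn2* division, the myeloid cells and the promoters were added after values were seen. One division of the glia is not reported here. There were 23 preset and 8 added alternatives. With 1 library per stage no test between groups was made.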

Additional observations from a re-analysis of the deposited data

How the results depend on the processing

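The counts of members past a fold rest on few cells where they use the *Isl1*-only gate. The number at 50% of their rise before *Isl1* was 1 at each stage, and 0 at both when cells were ordered by a neuron-like index or when the broader *Isl1* gate was used. At E11.5 it was 0 with 2 UMIs required of *Sox10* and *Isl1* or with erythroid cells left out, 2 with 2 glia-like genes in place of *Sox10*, 3 by mean CPM per cell or after thinning and 4 without the deepest 5% of cells. At E12.5 it was 0 with *Pou4f1* or *Tlx3* in place of *Isl1*. The number up in *Sox10*-positive proneural cells of E12.5 went from 1 to 0 under a Scrublet score of 0.1, 2 UMIs, *Pou4f1* or *Tlx3*, thinning or a fold of 4, and to 2 with 2 glia-like genes. At E11.5 it went from 0 to 1 by mean CPM per cell or thinning. Members 4-fold higher in *Isl1*-only cells of E11.5 went from 6 to 3 without the deepest 5% of cells. Stage differences in that gate went from 4 to 9 without the deepest 5%, to 7 with 2 glia-like genes or thinning, and to 0 at a fold of 2 or without erythroid cells. Members above mesenchymal cells at E11.5 went from 3 to 0 after thinning. The *Dcx* log2 ratio of *Sox10*-positive proneural over *Sox10*-only cells at E12.5 turned to -0.086 with *Pou4f1* or *Tlx3*. Inside neuron-like clusters, the ratio of cells with neither proneural gene over *Neurog1* cells turned to 1.20 (E11.5) and 1.15 (E12.5) for *Tubb3* and 2.30 (E11.5) for *Dcx*, and the *Stmn1* ratio over the *Stmn2* division at E12.5 to 0.881, or 0.996 with thinned counts. The cause was not tested. Of the other values of the counts above, 144 kept within 1.5 times.

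With 1 library per stage, depth limits *Dcx* and *Stmn4* before *Isl1* and every gene in the 17 proneural-only cells of E11.5. No paired analysis was possible because each group has 1 library and no test was made.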
